A study of Rattus norvegicus with 12 samples.

Results

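The genes described here are the muscle atrophy ligases and autophagy genes, a list of 9: Fbxo32, Trim63, Ulk1, Becn1, Map1lc3b, Gabarapl1, Bnip3, Sqstm1 and Ctsl. They were taken by symbol from the annotation of a rat expression array of 31099 probe sets. Where a gene had several probe sets, the one with the highest mean signal over the 12 arrays stood for it. Of the 9 genes, 8 had a probe set of their own (14 probe sets in all), among 14217 genes named on the array. Map1lc3b was annotated only on a probe set shared with Map1lc3b2, so that signal is given as the shared probe set and is left out of the counts of genes.

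Muscle loses protein by 2 main routes. In the first, a ubiquitin ligase tags proteins for the proteasome, and Fbxo32 (atrogin-1) and Trim63 (MuRF1) are the muscle ligases by which atrophy is usually recognised. In the second, autophagy, the kinase Ulk1 and the lipid kinase cofactor Becn1 start a membrane, proteins of the ATG8 family such as Map1lc3b and Gabarapl1 are fixed to it, receptors such as Bnip3 and Sqstm1 bring in cargo, and lysosomal proteases such as cathepsin L (Ctsl) digest it. Glucocorticoids are known to cause atrophy of skeletal muscle, where FoxO transcription factors raise both ligases and several autophagy genes. In heart muscle the same ligases take part in the turnover of sarcomere proteins.

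The cultures were cardiomyocytes from the ventricles of 1-day-old Wistar rats, separated from cardiac fibroblasts by how fast the cells attach, held for 24 h in OPTI-MEM and then exposed for 3 h. The 8 groups were ALD (aldosterone) plus RU486, COR (corticosterone) plus RU486, CVZ (cortivazol) plus RU486, RU486 alone, ALD, COR, CVZ and vehicle, which was ethanol. Cortivazol is a synthetic glucocorticoid, corticosterone is the main glucocorticoid of the rat, aldosterone is the main mineralocorticoid, and RU486 is an antagonist of the glucocorticoid receptor, given beforehand at 10 µM. ALD, COR, CVZ and vehicle had 1 array in each of 2 experiments, and each RU486 group had 1 array, in the second experiment. The first experiment had 4 arrays and the second 8. The labels give no ligand doses, and effects of ligand and of dose cannot be told apart. Nothing says that the experiments were separate culture preparations, so p-values cover the spread among these arrays alone.

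Signals are MAS5 intensities with a median of 1 on every array. Mean signals were 6.14 to 6.36 in the first experiment and 5.07 to 5.51 in the second. Of 12 cardiomyocyte markers 11 had a probe set, and their summed signal was 2134 to 2704 over the 12 arrays. The summed signal of 9 fibroblast markers was 363 to 443 in the first experiment and 175 to 202 in the second. Changes are log2 differences fitted by limma with the experiment as a block, with the standard error, and the threshold was an adjusted p of 0.05 (Benjamini-Hochberg over 18625 probe sets). In these bulk samples, fewer cells of a type and less RNA per cell cannot be told apart.

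Fbxo32, Gabarapl1, Bnip3 and Ctsl rose with CVZ, by 1.49-fold to 1.98-fold over vehicle. Fbxo32, Bnip3 and Ctsl rose with COR, by 1.36-fold to 1.94-fold. Trim63, Ulk1, Becn1 and Sqstm1 did not pass the test with any ligand. With CVZ, 4 of 8 genes were called higher and 0 lower, against 4.77% of all tested probe sets called higher. With COR, 3 of 8 were called higher and 0 lower, against 2.44% of all tested probe sets called higher. With ALD, 0 of 8 were called by limma, where 0.87% of all tested probe sets were called higher. At an unadjusted p below 0.05, 1704 probe sets passed with ALD, and Fbxo32, Trim63, Bnip3 and Ctsl were among them. The median change over the 8 genes was 0.29 with ALD, 0.38 with COR and 0.42 with CVZ on the log2 scale, beside 0.026, 0.014 and 0.012 over all 10080 named genes tested. The genes were chosen with earlier results of these data known, so these counts and medians are a description and not a test of the list. These 3 comparisons share the vehicle arrays. Without the experiment as a block, limma called 0 of the 8 genes in each.

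**Figure D1:**
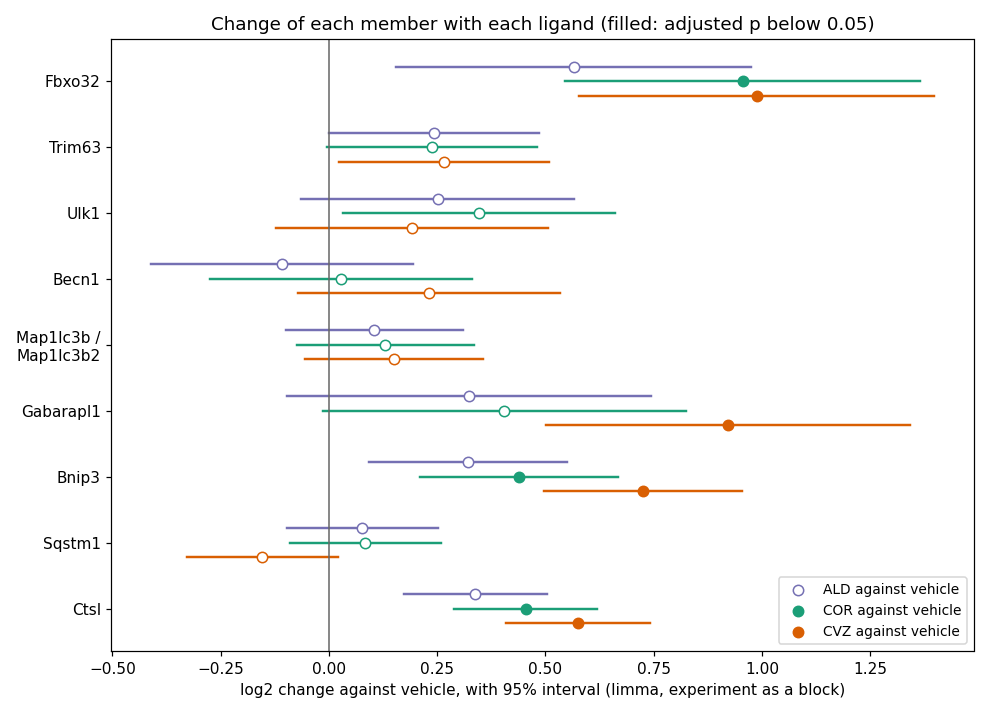
Change of each gene with ALD, COR and CVZ against vehicle, on the log2 scale, with 95% intervals from limma with the experiment as a block (n = 2 arrays in each group). Filled points have an adjusted p below 0.05. The filled points are Fbxo32, Bnip3 and Ctsl with COR, and the same genes and Gabarapl1 with CVZ.

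Of the ligases, Fbxo32 rose and Trim63 did not pass the test. Fbxo32 is the substrate-binding subunit of an SCF ubiquitin ligase, measured by probe set 1369188_at. Its signals in the first and the second experiment were 2.61 and 2.56 with ALD, 3.23 and 3.61 with COR, 3.26 and 3.74 with CVZ, and 1.80 and 1.66 with vehicle. All 6 ligand arrays were above both vehicle arrays, and the CVZ and COR arrays were above both ALD arrays. It averaged 3.50 ± 0.343 with CVZ and 1.73 ± 0.100 with vehicle (SD, n = 2 each). By limma it rose by 0.99 ± 0.19 on the log2 scale with CVZ (adjusted p = 0.0031, 1.98-fold) and by 0.96 ± 0.19 with COR (adjusted p = 0.0082, 1.94-fold). With ALD the change was 0.57 ± 0.19 (adjusted p = 0.31), in the same direction in both experiments. The CVZ call ended in 3 of 16 alternatives, over which the adjusted p was 0.0026 to 0.10. Besides the fit without the block, they were those without the vehicle or without the CVZ array of the second experiment. The COR call ended in 5 of 16 alternatives, with an adjusted p of 0.0070 to 0.26, among them those without either COR array or without the vehicle array of the second experiment.

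Trim63, a RING ubiquitin ligase that binds titin in the sarcomere, is on probe set 1387804_at. Its signals were 17.2 and 26.4 with ALD, 16.4 and 27.6 with COR, 18.8 and 25.0 with CVZ, and 16.4 and 19.8 with vehicle. The groups overlapped, and the second experiment was higher than the first in each of these groups. Within the second experiment the log2 differences from vehicle were 0.42 with ALD, 0.48 with COR and 0.34 with CVZ, and within the first they were 0.07, -0.003 and 0.19. RU486 alone also differed from the vehicle array of the second experiment by 0.34, and the arrays with ligand plus RU486 had signals of 23.2 to 24.6. By limma the changes were 0.24 ± 0.11 with ALD (adjusted p = 0.55), 0.24 ± 0.11 with COR (adjusted p = 0.39) and 0.27 ± 0.11 with CVZ (adjusted p = 0.22). The 95% interval with CVZ was 0.02 to 0.51.

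Promoter windows, 250 bases before to 50 after the gene's start, came from RefSeq (GRCr8) for 7 of the 9 genes, Fbxo32 and Becn1 having no entry in the table used. The windows were searched on both strands for TGTTCT, the hexamer that steroid receptors of this class bind, for GTAAACA, which FoxO factors bind, and for CACGTG, the E-box bound by TFEB and related factors. No searched motif overlaps another as spelled. The 3 windows with a match are shown, with the matches in capitals, because they belong to a gene that was called with CVZ (Gabarapl1), to a gene that was called with COR as well (Bnip3) and to the ligase that was not called (Trim63). The windows are Trim63 at chr5:151816986-151817285 on the plus strand, Gabarapl1 at chr4:164666082-164666381 on the plus strand and Bnip3 at chr1:203154913-203155212 on the minus strand.
Trim63: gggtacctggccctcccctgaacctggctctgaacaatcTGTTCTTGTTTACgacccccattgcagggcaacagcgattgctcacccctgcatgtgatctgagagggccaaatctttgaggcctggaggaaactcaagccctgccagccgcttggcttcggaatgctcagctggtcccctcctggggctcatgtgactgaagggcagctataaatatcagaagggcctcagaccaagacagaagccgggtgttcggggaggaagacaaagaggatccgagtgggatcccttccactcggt
Gabarapl1: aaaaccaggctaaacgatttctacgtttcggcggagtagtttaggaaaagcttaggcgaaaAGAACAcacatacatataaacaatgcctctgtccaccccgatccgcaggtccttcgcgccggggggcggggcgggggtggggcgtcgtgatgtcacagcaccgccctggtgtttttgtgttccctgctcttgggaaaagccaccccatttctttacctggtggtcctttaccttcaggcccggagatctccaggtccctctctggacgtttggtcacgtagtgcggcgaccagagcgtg
Bnip3: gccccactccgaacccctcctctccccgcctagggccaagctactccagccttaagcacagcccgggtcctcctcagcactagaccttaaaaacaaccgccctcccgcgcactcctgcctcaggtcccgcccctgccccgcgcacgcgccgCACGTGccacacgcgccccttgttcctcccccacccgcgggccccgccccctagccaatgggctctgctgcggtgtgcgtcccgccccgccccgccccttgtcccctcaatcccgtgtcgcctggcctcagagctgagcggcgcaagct
In Trim63 the receptor hexamer begins 211 bases before the start and is followed, with no gap, by a FoxO match on the other strand that begins at 205. In mouse, a receptor element next to a FoxO element is known from the promoter of this gene. In Gabarapl1 the receptor hexamer lies on the other strand, 189 bases before the start, and in Bnip3 the E-box begins 99 bases before it. Of 33469 rat promoter windows of this length, 20.7% held the receptor hexamer, 3.78% the FoxO letters and 6.42% the E-box. The hexamer as an inverted repeat with a gap of 3 was in 0.0149% of all windows and in 0 of the 7. A match is a description of these letters and not a site of binding.

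The genes that start autophagy did not pass the test. Ulk1, the kinase at the head of the pathway, had signals of 4.31 and 7.36 with ALD, 5.01 and 7.24 with COR, 4.84 and 6.04 with CVZ, and 4.05 and 5.51 with vehicle (probe set 1375869_at). Each ligand array was above the vehicle array of its own experiment, but the groups overlapped. The change was 0.25 ± 0.15 with ALD (adjusted p = 0.68), 0.35 ± 0.15 with COR (adjusted p = 0.32) and 0.19 ± 0.15 with CVZ (adjusted p = 0.57). A second probe set of Ulk1, 1382402_at, disagreed in sign, at -0.03 ± 0.20, -0.07 ± 0.20 and -0.27 ± 0.20.

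Becn1, beclin 1, is part of the lipid kinase complex that nucleates the autophagosome, and is on probe set 1367457_at. It had signals of 14.5 and 14.3 with ALD, 20.6 and 12.2 with COR, 19.0 and 17.6 with CVZ, and 17.3 and 14.0 with vehicle. Only the CVZ arrays were both above the higher vehicle array, and the COR arrays lay above and below all the other 6 arrays without RU486. The change was -0.11 ± 0.14 with ALD (adjusted p = 0.90), 0.03 ± 0.14 with COR (adjusted p = 0.97) and 0.23 ± 0.14 with CVZ (adjusted p = 0.44).

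Among the ATG8 genes, Gabarapl1 changed. Its probe set 1371680_at had signals of 2.47 and 3.09 with ALD, 2.60 and 3.31 with COR, 4.52 and 3.95 with CVZ, and 1.81 and 2.66 with vehicle. The CVZ arrays were above all 10 others, while the ALD and COR arrays of the first experiment were below the vehicle array of the second. It averaged 4.23 ± 0.407 with CVZ and 2.24 ± 0.594 with vehicle (SD, n = 2 each). It rose by 0.92 ± 0.20 with CVZ (adjusted p = 0.0064, 1.90-fold). The change was 0.32 ± 0.20 with ALD (adjusted p = 0.70) and 0.41 ± 0.20 with COR (adjusted p = 0.41). The difference from vehicle with CVZ was 1.28 within the first experiment and 0.56 within the second. On a second probe set of the gene, 1378842_at, CVZ gave 0.86 ± 0.25 (adjusted p = 0.046), COR 0.68 ± 0.25 (adjusted p = 0.22) and ALD 0.17 ± 0.25 (adjusted p = 0.91). On that probe set the difference with CVZ was the smaller one in the first experiment, at 0.38, and was 1.34 in the second. The CVZ call ended in 4 of 16 alternatives, with an adjusted p of 0.0034 to 0.28, among them those without the vehicle or without the CVZ array of the first experiment.

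The probe set shared by Map1lc3b and Map1lc3b2 had signals of 23.3 and 18.5 with ALD, 24.1 and 18.6 with COR, 24.4 and 18.8 with CVZ, and 22.8 and 16.3 with vehicle. In each experiment all 3 ligand arrays were above the vehicle array. The changes were 0.11 ± 0.10 with ALD (adjusted p = 0.83), 0.13 ± 0.10 with COR (adjusted p = 0.66) and 0.15 ± 0.10 with CVZ (adjusted p = 0.46). The 95% interval with CVZ was -0.05 to 0.36.

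**Figure D2:**
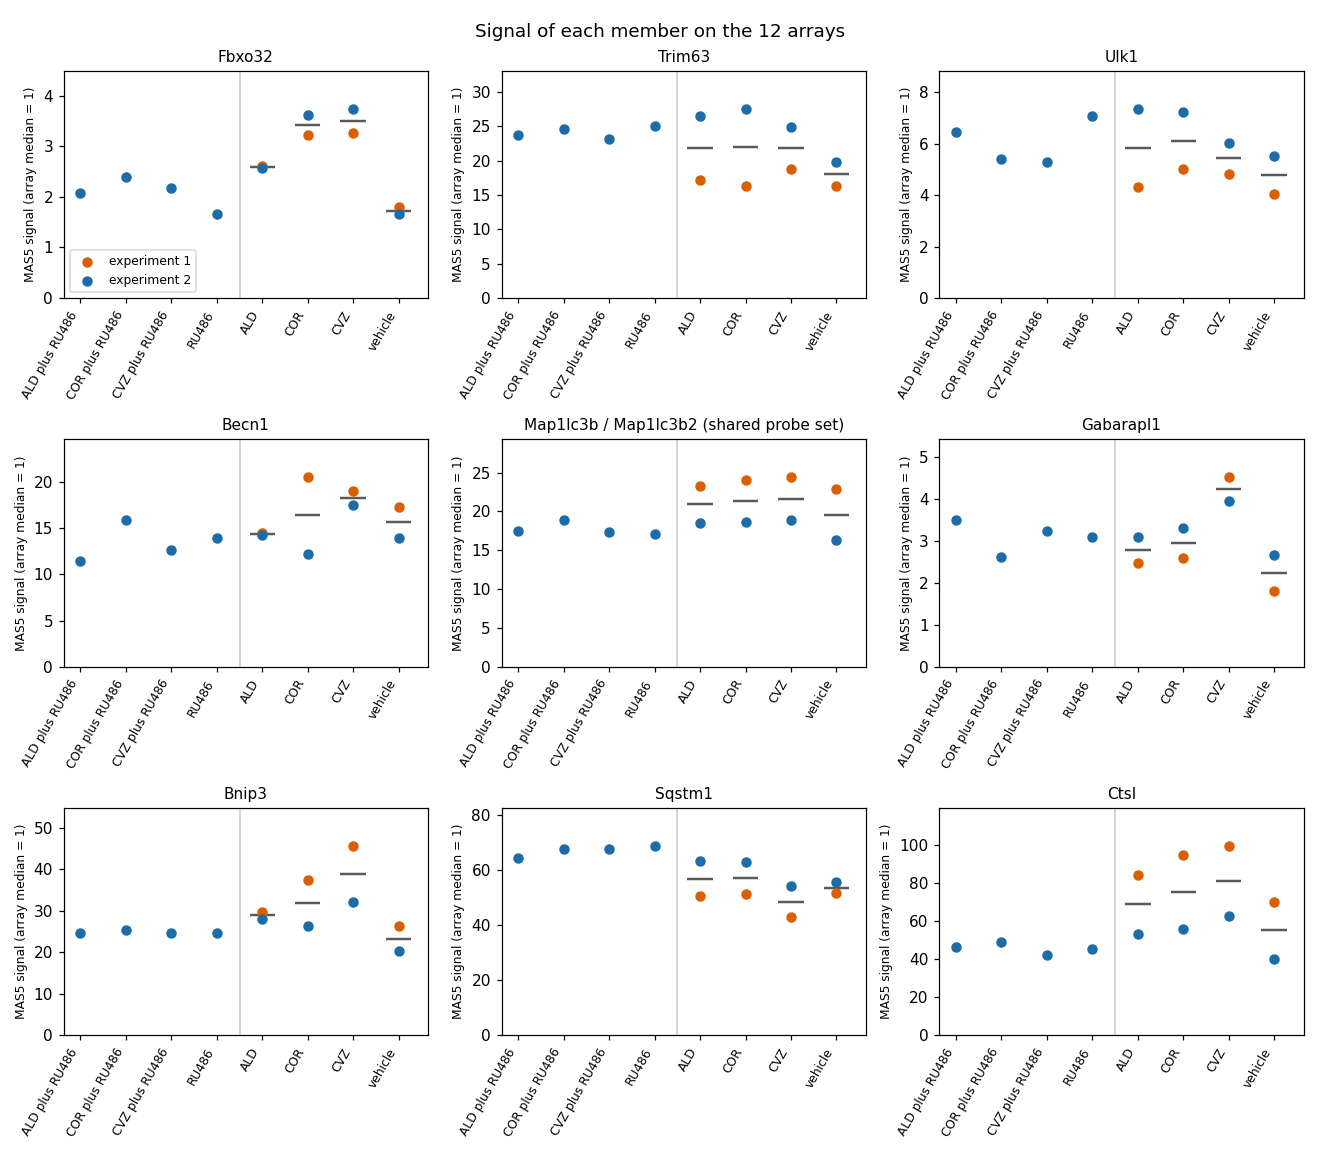
Signal of each gene (array median = 1) on the 12 arrays, by group, with the RU486 groups on the left of each panel. Points are arrays, coloured by experiment, and bars are the means of groups with 2 arrays. In the Fbxo32 panel all 6 ligand arrays lie above both vehicle arrays, and in the Gabarapl1 panel the CVZ arrays lie above all others.

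Of the cargo receptors, Bnip3 rose and Sqstm1 did not pass the test. Bnip3, a mitochondrial protein that is induced by hypoxia and marks mitochondria for autophagy, is on probe set 1387805_at. It had signals of 29.7 and 28.1 with ALD, 37.3 and 26.3 with COR, 45.6 and 32.0 with CVZ, and 26.2 and 20.3 with vehicle. Each ligand array was above the vehicle array of its own experiment, and all 6 were above both vehicle arrays, the lowest by little. Bnip3 averaged 38.8 ± 9.63 with CVZ and 23.3 ± 4.16 with vehicle (SD, n = 2 each). It rose by 0.73 ± 0.11 with CVZ (adjusted p = 0.00025, 1.65-fold) and by 0.44 ± 0.11 with COR (adjusted p = 0.032, 1.36-fold). With ALD the change was 0.32 ± 0.11 (adjusted p = 0.29). The CVZ call ended without the block and without the mean-variance trend, and the adjusted p over 16 alternatives was 2.2e-05 to 0.43. The COR call ended in 8 of 16 alternatives, with an adjusted p of 0.0083 to 1, among them quantile normalization, no filter on low signal and those without either COR or either vehicle array.

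Sqstm1 (p62), which binds ubiquitin-tagged cargo and ATG8 proteins, had signals of 50.6 and 63.4 with ALD, 51.5 and 62.9 with COR, 42.9 and 54.3 with CVZ, and 51.6 and 55.9 with vehicle (probe set 1371353_at). The CVZ array was the lowest of the 4 in each experiment, and the groups overlapped. The change was 0.08 ± 0.08 with ALD (adjusted p = 0.86), 0.08 ± 0.08 with COR (adjusted p = 0.77) and -0.15 ± 0.08 with CVZ (adjusted p = 0.35). With quantile normalization the CVZ change was -0.26 (adjusted p = 0.020), and it was 0.17 (adjusted p = 0.73) as a mean over the gene's 4 probe sets. That mean includes 1371220_at, with a mean signal of 0.177, which the filter on low signal left out of the main fit. Probe set 1389381_at, with a mean signal of 13.1, gave -0.05 ± 0.13 with ALD, -0.01 ± 0.13 with COR and -0.19 ± 0.13 with CVZ (adjusted p = 0.49). Probe set 1371221_at, with a mean signal of 0.912, gave 0.19 ± 0.34 with CVZ.

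Ctsl, the lysosomal cysteine protease cathepsin L, is also known to be raised in wasting skeletal muscle. Its probe set 1370244_at had signals of 84.3 and 53.3 with ALD, 94.5 and 55.8 with COR, 99.7 and 62.6 with CVZ, and 70.1 and 40.1 with vehicle. Every array of the first experiment was above every array of the second, and within each experiment CVZ was highest, COR next, ALD next and vehicle lowest. Ctsl averaged 81.1 ± 26.2 with CVZ and 55.1 ± 21.2 with vehicle (SD, n = 2 each). It rose by 0.57 ± 0.08 with CVZ (adjusted p = 0.00011, 1.49-fold) and by 0.45 ± 0.08 with COR (adjusted p = 0.0022, 1.37-fold). With ALD the change was 0.34 ± 0.08 (adjusted p = 0.056). The second probe set, 1370245_at, gave 0.39 ± 0.11 with ALD (adjusted p = 0.14), 0.85 ± 0.11 with COR (adjusted p = 0.00011) and 0.86 ± 0.11 with CVZ (adjusted p = 4.7e-05). The CVZ call ended without the block and without the trend (adjusted p of 4.0e-05 to 0.996 over 16 alternatives), and the COR call also without the COR array of the first experiment (0.00024 to 1). The fibroblast sum differed between the experiments in the same direction as Ctsl, as given above. So did the sums of 5 proliferation markers (28.9 to 30.1 in the first experiment and 9.67 to 11.8 in the second) and of 2 erythroid markers (85.1 to 124 and 27.8 to 37.6), and those of the smooth muscle and macrophage markers did not overlap either. Their part in the difference was not tested. The fibroblast sum was 440 with CVZ and 443 with vehicle in the first experiment, and 202 with CVZ and 193 with vehicle in the second. Among its 9 markers, Tcf21, a transcription factor of cardiac fibroblasts, was called higher with CVZ (0.95 ± 0.23, adjusted p = 0.017). So was Myh7, a myosin heavy chain, among the cardiomyocyte markers (0.35 ± 0.09, adjusted p = 0.025). The part of either in the rises with CVZ was not tested.

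Of 7 endothelial markers 6 had a probe set, and their summed signal was 13.5 to 22.2 with ALD, 18.4 to 29.9 with COR, 19.7 to 26.2 with CVZ and 7.61 to 15.3 with vehicle. Kdr, a receptor for vascular endothelial growth factor, was the marker that was called with each ligand, and the other 4 tested were not. With RU486 the sum was 10.4 with ALD, 10.3 with COR and 9.37 with CVZ, and 7.62 with RU486 alone. The part of the endothelial markers in the rises of Fbxo32, Gabarapl1, Bnip3 and Ctsl was not tested.

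Set against each other at 3 h, the ligands were separated by 1 call among these genes on the probe sets that stood for them, and by 1 more on the second probe set of Ctsl. Bnip3 was lower with ALD than with CVZ, by -0.40 ± 0.11 on the log2 scale (adjusted p = 0.044), which made 1 of 8 genes lower against 2.62% of all tested probe sets. This call ended in 9 of 16 alternatives, with an adjusted p of 0.0074 to 1, among them those without either CVZ array, either COR array or the ALD array of the first experiment. In the same comparison Gabarapl1 differed by -0.60 ± 0.20 (adjusted p = 0.13), Fbxo32 by -0.42 ± 0.19 (adjusted p = 0.33) and Ctsl by -0.24 ± 0.08 (adjusted p = 0.13). The second Ctsl probe set, 1370245_at, was called lower with ALD than with CVZ, by -0.47 ± 0.11 (adjusted p = 0.018). With COR against CVZ, 0 of 8 were called by limma, against 0.966% of all tested probe sets in either direction, where 1793 passed an unadjusted p below 0.05. Fbxo32 differed there by -0.03 with a 95% interval of -0.44 to 0.38, and Gabarapl1 by -0.52 with an interval of -0.94 to -0.10 (adjusted p = 0.36). With ALD against COR, 0 of 8 were called by limma, against 0.295% of all tested probe sets, where 1155 passed an unadjusted p below 0.05. The Fbxo32 difference there was -0.39 with an interval of -0.80 to 0.02. These misses do not show that the ligands act alike.

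RU486 alone left these genes without a call. By limma 0 of 8 were called against vehicle, beside 0.129% of all tested probe sets in either direction, where 1257 passed an unadjusted p below 0.05. Fbxo32 had a signal of 1.67 with RU486 and 1.66 with vehicle in the second experiment. Bnip3 had 24.7 with RU486 and 20.3 with vehicle there, and Sqstm1 had 69.0 and 55.9. Trim63 had 25.0 and 19.8, Ulk1 7.06 and 5.51, Ctsl 45.3 and 40.1, Gabarapl1 3.1 and 2.7, and Becn1 14.0 and 14.0. RU486 groups have no replicate, and the fit takes their arrays to vary like the others.

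With RU486 given before the ligand, Ctsl fell and Fbxo32 did not pass the test. Fbxo32 had signals of 2.07 with ALD plus RU486, 2.39 with COR plus RU486 and 2.17 with CVZ plus RU486, against 2.56 with ALD, 3.61 with COR and 3.74 with CVZ in the same experiment. All 3 were below the arrays with the ligand alone and above the array with RU486 alone. As the mean of the 3 ligands, ligand plus RU486 differed from ligand by -0.52 ± 0.15 (adjusted p = 0.065). Ctsl had 46.3 with ALD plus RU486, 49.1 with COR plus RU486 and 42.0 with CVZ plus RU486, against 53.3 with ALD, 55.8 with COR and 62.6 with CVZ. Ctsl fell by 0.31 ± 0.06 on the log2 scale with RU486 on top (adjusted p = 0.0066), which made 1 of 8 genes lower against 2.99% of all tested probe sets. This call ended without the block, without the trend and without the CVZ array of the second experiment, and the adjusted p over 16 alternatives was 0.0026 to 0.55.

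Bnip3 had 24.5 with ALD plus RU486, 25.4 with COR plus RU486 and 24.6 with CVZ plus RU486, against 28.1 with ALD, 26.3 with COR and 32.0 with CVZ. The 3 arrays with ligand plus RU486 lay within 1 signal unit of the 24.7 seen with RU486 alone, and above the 20.3 of vehicle in that experiment. The change was -0.21 ± 0.08 (adjusted p = 0.21). Gabarapl1 had 3.50 with ALD plus RU486, 2.62 with COR plus RU486 and 3.23 with CVZ plus RU486, against 3.09 with ALD, 3.31 with COR and 3.95 with CVZ, with no common direction. Its change was -0.19 ± 0.16 (adjusted p = 0.62), and on its second probe set 0.30 ± 0.20 (adjusted p = 0.52). Trim63, Ulk1, Becn1 and Sqstm1 had adjusted p of 0.17 to 0.66 in this comparison, and Sqstm1 was called higher (0.24, adjusted p = 0.011) with quantile normalization alone among the alternatives. Of the 11 cardiomyocyte markers, 6 were called lower with ligand plus RU486 than with ligand, against 2.99% of all tested probe sets. The median change of the 11 was -0.20. Also called lower were 2 of 6 smooth muscle markers and the endothelial marker Kdr (-1.08 ± 0.15, adjusted p = 0.00032). Mean array signals in the second experiment were 5.07 to 5.23 with ligand plus RU486 and 5.37 to 5.51 with ligand alone. The part of this difference in the marker calls was not tested, nor was the part of the marker shifts in the fall of Ctsl.

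Against RU486 alone, ligand plus RU486 gave 0 of 8 calls by limma, and 0% of all tested probe sets were called, where 462 passed an unadjusted p below 0.05. Fbxo32 differed there by 0.39 ± 0.22 with an interval of -0.09 to 0.86, while Ctsl and Bnip3 differed by 0.01 each. Gabarapl1 differed by 0.004 ± 0.23, and by 0.43 ± 0.29 on its second probe set. The interaction, which sets the response to the ligands under RU486 against that without it, was called for 0 of 8 genes by limma, against 1.09% of all tested probe sets in either direction, where 1440 passed an unadjusted p below 0.05. It was -0.44 ± 0.11 for Ctsl (adjusted p = 0.080), -0.49 ± 0.15 for Bnip3 (adjusted p = 0.23), -0.55 ± 0.28 for Gabarapl1 (adjusted p = 0.72) and -0.45 ± 0.27 for Fbxo32 (adjusted p = 0.83). On the second Gabarapl1 probe set it was -0.15 ± 0.35. For Ulk1, called with no ligand, it was -0.57 ± 0.21 (adjusted p = 0.39), and 0.17 ± 0.29 on its second probe set. For Trim63, Becn1 and Sqstm1, also called with no ligand, it was -0.32 ± 0.16, -0.13 ± 0.20 and -0.05 ± 0.12. Ctsl, Bnip3, Gabarapl1 and Fbxo32 were called with CVZ on the same ligand and vehicle arrays. Their values here are thus not an independent test of loss under RU486. Without the vehicle array of the first experiment the interaction of Ctsl was called.

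**Figure D3:**
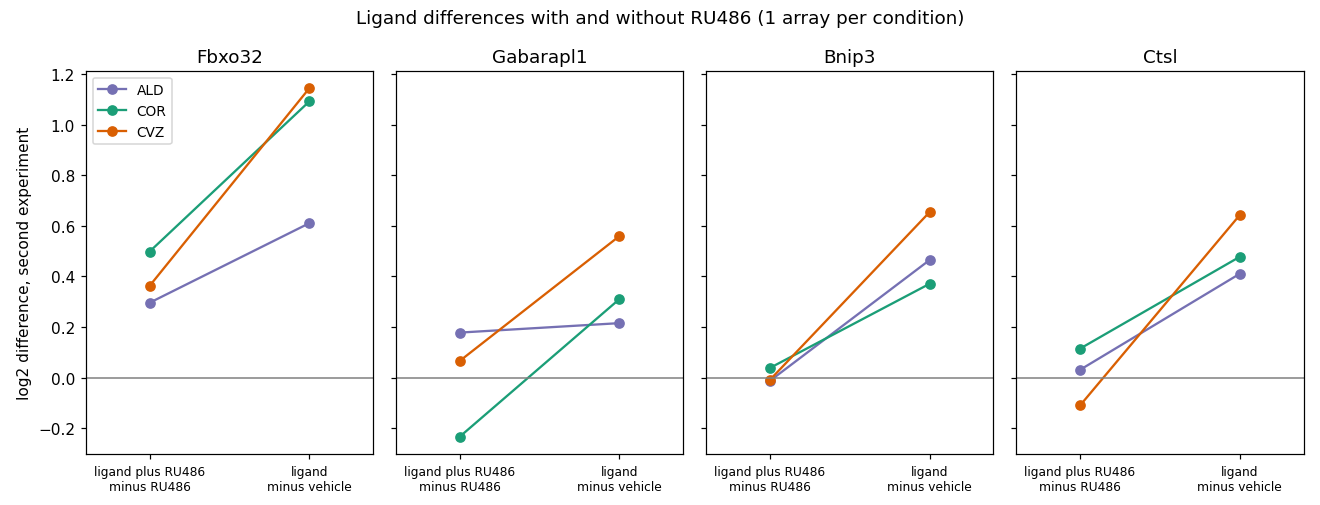
Log2 differences of ligand plus RU486 minus RU486 (left of each panel) and of ligand minus vehicle (right) in the second experiment, for the 4 genes called with CVZ, with 1 array in each condition and so no error bar. The genes were chosen by their CVZ difference from vehicle, which the right side shows again. A smaller difference on the left is thus not an independent test. With RU486 the differences for Bnip3 lie near 0 for all 3 ligands, and those for Fbxo32 lie between 0.30 and 0.50.

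In the rest of the pathway most calls lay among the upstream regulators. The lists, chosen with earlier results of these data known, held 110 other genes, of which 96 were tested. With CVZ 15 were called higher and 5 lower, with COR 8 and 3, and with ALD 8 and 0, where 7, 3 and 1 in all were called without the experiment as a block. Over all tested probe sets, 4.77% were called higher and 3.19% lower with CVZ, 2.44% and 0.956% with COR, and 0.87% and 0.0805% with ALD. Among 16 tested muscle ubiquitin ligases and their partners, 3 rose and 1 fell with CVZ, with a list median of -0.03. Trim54 (MuRF3), a relative of Trim63 in the sarcomere, had a signal of 60.2 ± 0.574 with ALD, 68.3 ± 1.71 with COR, 84.2 ± 4.71 with CVZ and 42.6 ± 2.00 with vehicle (SD, n = 2 each). It rose with all 3 ligands, by 0.50 ± 0.08 with ALD (adjusted p = 0.0035), 0.68 ± 0.08 with COR (adjusted p = 5.6e-05) and 0.98 ± 0.08 with CVZ (adjusted p = 4.7e-07). With ligand plus RU486 against ligand it fell by 0.45 ± 0.06 (adjusted p = 0.00039). The CVZ call of Trim54 held in all 16 alternatives, and its other 3 calls ended without the block and without the trend.

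Cblb, a ligase known in mouse muscle to act on the insulin receptor substrate, rose with CVZ to a signal of 9.10 ± 0.183, against 4.68 ± 0.324 with vehicle (0.95 ± 0.14, adjusted p = 0.00027). That call ended in 1 of 16 alternatives, the fit without the block, and the adjusted p was 0.000165 to 0.105. Ube2b, a ubiquitin-conjugating enzyme, rose by 0.32 ± 0.09 (adjusted p = 0.035), a call that ended in 10 of 16 alternatives with an adjusted p of 0.029 to 0.92. Asb2, the substrate-binding part of a ligase for filamins, fell by 0.38 ± 0.10 (adjusted p = 0.022), a call that ended in 6 of 16 with an adjusted p of 0.00053 to 1. Nedd4, a HECT ligase, and Usp14, a deubiquitinase of the proteasome, had the highest signals among those not called, with changes of -0.09 and -0.01 with CVZ.

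In the autophagy lists outside the 9 genes, the counts with CVZ were near the shares of all probe sets. Of 13 genes of initiation and nucleation, 1 was called higher and 1 lower with CVZ, and of 15 genes of ATG8 conjugation 0 were called higher and 1 lower. In the first list Vmp1, a membrane protein needed for autophagosome formation, rose by 0.45 ± 0.13 with CVZ (adjusted p = 0.039). Rubcn, an inhibitor of autophagosome maturation, fell by 0.49 ± 0.11 with CVZ (adjusted p = 0.011) and by 0.48 ± 0.11 with COR (adjusted p = 0.024). Rb1cc1 and Atg9a, the members of that list with the highest signals among those not called, changed by -0.31 and 0.14 with CVZ. In the second list Wipi1, which binds the lipid made by the Becn1 complex, fell by 0.44 ± 0.12 with CVZ (adjusted p = 0.027) and by 0.46 ± 0.12 with COR (adjusted p = 0.035). Map1lc3a rose by 0.44 ± 0.09 with ALD (adjusted p = 0.031). Its changes of 0.22 ± 0.09 with COR (adjusted p = 0.30) and 0.28 ± 0.09 with CVZ (adjusted p = 0.078) had the same sign and were not called. Gabarap and Atg3 changed by 0.17 and -0.22 with CVZ and were not called. Each of the Vmp1, Rubcn, Wipi1 and Map1lc3a calls ended in 4 to 9 of 16 alternatives, with an adjusted p of 0.0018 to 1, and for each of them at least 2 arrays were such that the call ended without them.

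None of 10 tested autophagy receptors and none of 18 tested lysosomal genes was called by limma with any ligand, and at the shares called over all probe sets lists of this size would hold few calls or none. Phb2 and Tax1bp1, receptors with the highest signals, changed by 0.18 (adjusted p = 0.23) and 0.32 (adjusted p = 0.051) with CVZ. The lysosomal membrane protein Cd63 changed by -0.01, and cathepsin B (Ctsb), a protease of the same family as Ctsl, by -0.01 with an adjusted p of 0.96. The list medians with CVZ were 0.01 for the receptors and 0.06 for the lysosomal genes.

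**Figure D4:**
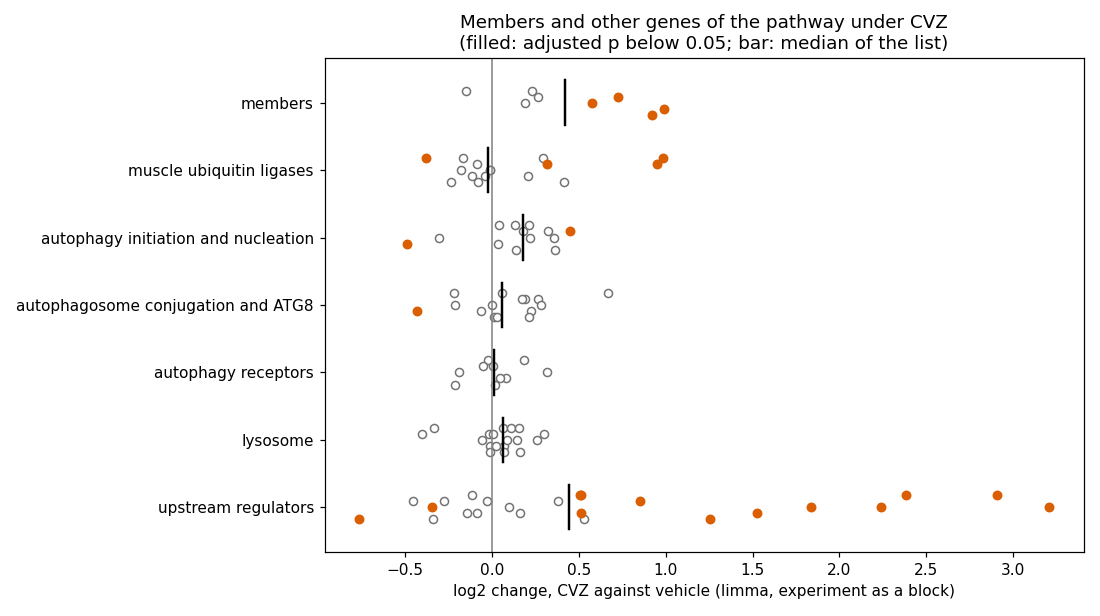
Change with CVZ against vehicle, on the log2 scale, of the 8 genes with a probe set of their own and of the other genes of the pathway by list. Each point is a gene, filled where its adjusted p was below 0.05, and the bars are list medians. The filled points reach 0.99 among the ligases and autophagy genes and 3.21 among the upstream regulators.

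The regulators upstream of the ligases held most of these calls. Of 24 tested regulators, 11 were called higher and 2 lower with CVZ, 7 and 1 with COR, and 6 and 0 with ALD, to be read against the same shares (4.77% higher and 3.19% lower with CVZ). Foxo3, the transcription factor that drives Fbxo32 in mouse muscle, had a signal of 12.6 ± 1.00 with ALD, 19.4 ± 1.92 with COR, 31.5 ± 1.95 with CVZ and 8.76 ± 0.139 with vehicle (SD, n = 2 each). It rose by 0.51 ± 0.11 with ALD (adjusted p = 0.041), 1.14 ± 0.11 with COR (adjusted p = 9.4e-06) and 1.84 ± 0.11 with CVZ (adjusted p = 2.0e-08). The ALD call ended in 11 of 16 alternatives, with an adjusted p of 0.036 to 1, among them those without any 1 of the 6 arrays of ALD, COR and vehicle. Klf15, a factor induced by the glucocorticoid receptor, rose by 1.77, 2.62 and 3.21 with ALD, COR and CVZ. Sesn1, which restrains mTORC1, rose by 1.98, 2.65 and 2.91, and Cebpb, a factor that raises atrophy genes, by 1.15, 1.74 and 2.24. Pik3r1, the regulatory subunit of phosphoinositide 3-kinase, rose by 0.74, 1.68 and 2.39, and its ALD call (adjusted p = 0.048) ended in 11 of 16 alternatives with an adjusted p of 0.040 to 1. Akt1 and Prkaa1, kinases of growth and energy sensing, changed by -0.12 and -0.28 with CVZ and were not called. The genes called lower were Nr3c1, the glucocorticoid receptor itself, and Prkaa2 with CVZ, at -0.77 ± 0.12 and -0.34 ± 0.09, and Smad3 with COR, at -0.86 ± 0.21. These 3 were singled out after their values were seen. Without the block the CVZ calls of Foxo3, Klf15, Sesn1, Cebpb and Pik3r1 held. So did the COR calls of Klf15, Sesn1 and Cebpb and the ALD call of Sesn1. The COR calls of Foxo3 and Pik3r1 and the ALD calls of Foxo3, Klf15, Cebpb and Pik3r1 ended.

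Genes with profiles most like the called ones were sought over the 10 arrays other than vehicle, each taken as its log2 difference from the vehicle array of its experiment. The measure was the root mean square difference between the profiles. For Fbxo32, whose own profile had a root mean square size of 0.707, the nearest were Lypla1 (0.146), Gucd1 (0.148) and Ppargc1a (0.151). For Gabarapl1, with a size of 0.531, they were Slc41a3 (0.151), Cmas (0.161) and 1700109H08Rikl (0.162). For Bnip3, with a size of 0.451, they were Tsc22d3 (0.0899), Mrpl15 (0.0967) and Vapa (0.0978). For Ctsl, with a size of 0.386, they were Popdc2 (0.0737), Gas6 (0.0747) and Tsc22d3 (0.0882). Tsc22d3, which encodes GILZ, was among the nearest genes of both Bnip3 and Ctsl, and all profiles share the vehicle arrays. Some genes are nearest to any profile, and shared regulation was not tested.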

How the data were processed

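RNA from 12 rat cardiomyocyte cultures in 8 groups was measured, 1 array each. The deposited values are MAS5 intensities on a linear scale, per the submitters' processing notes, and each array has a median of 1. Other steps before deposit are not given in the sources used here, and detection calls were not used. Arrays have no read depth, and their number limits the precision. Probe sets were named by the platform annotation, with current symbols through gene IDs in a RefSeq table: 20826 had 1 gene, 436 several and 9780 none. After 57 control probe sets were set aside, values were taken as log2 of the intensity plus 0.0696 (the 10th percentile of all values), and the 40% with the lowest mean log2 value were left out. The other 18625 were fitted in limma 3.58.1 (R 4.3.3; lmFit and eBayes with a trend), in a model that held a term for each of the 8 groups plus the experiment as block, over 10 comparisons. Residual degrees of freedom were 3, and the prior added 12.2, so errors lean on all probe sets.

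The pairing by experiment comes from the labels, which give a first and a second experiment. After removal of group means, deviations correlated at 0.512 to 0.567 between groups. Replicates correlated at 0.946 to 0.950, and none were identical. The alternatives were no block, other pseudocounts (5th and 20th percentile), no filter, quantile or trimmed-mean scaling, no trend, the mean over a gene's probe sets, leaving out single arrays, and each experiment alone. The fit of CVZ against vehicle alone was run on simulated data, with independent noise drawn from the fitted spread. That run does not test the RU486 comparisons or arrays that are not independent.

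The genes, lists and comparisons were chosen with earlier results of these data known. All listed genes are named, and of each pathway list up to 5 called with a ligand by size of the CVZ change and the 2 of highest signal that were not called, with exceptions marked. The lists held other muscle ubiquitin ligases, autophagy initiation, ATG8 conjugation, autophagy receptors, lysosome and upstream regulators.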

Additional observations from a re-analysis of the deposited data

How the results depend on the processing

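The calls of the 8 genes depended on the block, and most of them on the mean-variance trend. Every alternative kept the sharing of variance among probe sets, so its part was not tested. Without the replicate block that pairs arrays by experiment, 0 of the 8 genes were called in each comparison, and probe sets called were 13, 41 and 215 for ALD, COR and CVZ against vehicle (177, 632 and 1483 with it). They were 18 for ALD against CVZ (792), 49 for ligand plus RU486 against ligand (907), and 0 each for COR against CVZ (180), ALD against COR (55), RU486 against vehicle (24) and the interaction (203). Without the block, RU486 against vehicle and ligand plus RU486 against ligand also set the second experiment against means over both. Without the mean-variance trend, 0 genes were called with COR, 1 with CVZ, 0 for ALD against CVZ and 0 for ligand plus RU486 against ligand. Probe sets called were then 15, 117 and 646 with ALD, COR and CVZ, 78 for ALD against CVZ, 43 for ligand plus RU486 against ligand, and 0 for COR against CVZ, ALD against COR, RU486 against vehicle and the interaction. Without the filter, 0 genes were called for ALD against CVZ, and probe sets called were 106 for COR against CVZ, 21 for ALD against COR and 13 for RU486 against vehicle. Quantile normalization gave 2 genes for ligand plus RU486 against ligand, Ctsl and Sqstm1, and 2 probe sets for ligand plus RU486 against RU486. As means over probe sets, 2 genes were called for ALD against CVZ, Bnip3 and Ctsl. Other pathway genes called, 8, 11 and 20 with ALD, COR and CVZ, became 1, 3 and 7 without the block and 2, 6 and 11 without the trend, and 5 with ALD without the filter. The cause was not tested.

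Leaving out 1 array at a time gave 0 to 3 genes called with COR, 3 to 4 with CVZ, and 0 to 1 each for ALD against CVZ, ligand plus RU486 against ligand, and the interaction. Of the genes called with COR, 0 were called without the COR array of the first experiment. Probe sets called ranged from 117 to 186 with ALD, 341 to 692 with COR and 994 to 1550 with CVZ. They ranged from 18 to 238 for COR against CVZ, 486 to 851 for ALD against CVZ, 2 to 71 for ALD against COR, 11 to 42 for RU486 against vehicle, 551 to 1042 for ligand plus RU486 against ligand and 0 to 3 for ligand plus RU486 against RU486. Other pathway genes ranged from 4 to 7 with ALD and 13 to 20 with CVZ.

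Scaling moved the split of higher and lower probe sets, at 889 and 594 with CVZ (782 and 807 with trimmed-mean scaling), 454 and 178 with COR (432 and 271), 162 and 15 with ALD (151 and 37 with quantile normalization), and 350 and 557 for ligand plus RU486 against ligand (483 and 476 with quantile normalization).

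Signs turned for values that were not called. As a mean over probe sets, Sqstm1 became 0.17 with CVZ, -0.30 with RU486 against vehicle and -0.19 for ligand plus RU486 against ligand. That mean includes 1371220_at, which the main fit left out for low signal. By quantile normalization Sqstm1 became -0.017 with ALD and -0.00174 with COR. As means over probe sets, Ulk1 became -0.041 with CVZ and Gabarapl1 0.053 for ligand plus RU486 against ligand. Becn1 with COR became -0.042 by quantile and -0.013 by trimmed-mean scaling. Without the block, Ctsl became -0.23 for RU486 against vehicle, and Trim63 and Ulk1 became 0.16 and 0.0039 for ligand plus RU486 against ligand. In these fits the RU486 arrays, all of the second experiment, are set against means over both experiments. Effects of RU486 and of the experiment cannot be told apart there. With 1 array left out, Becn1 ranged from -0.29 to 0.075 with ALD and -0.27 to 0.33 with COR, and Sqstm1 from -0.024 to 0.18 with ALD and -0.018 to 0.19 with COR. Fbxo32 ranged from -0.13 to 0.063 for COR against CVZ and from -0.21 to 0.012 for RU486 against vehicle, and Bnip3 from -0.31 to 0.073 for ALD against COR. RU486 groups have 1 array each and could not be left out.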
